A study of Saccharomyces cerevisiae with 36 samples.

Results

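Haploid budding yeast of mating type a (MATa) secrete a-factor, carry the receptor for the α-factor of the opposite mating type, and keep a kinase cascade ready that turns on mating genes when α-factor arrives. The 10 genes described here belong to that system: the a-factor precursors MFA1 (YDR461W) and MFA2 (YNL145W), the a-factor exporter STE6 (YKL209C), the α-factor receptor STE2 (YFL026W), the kinases FUS3 (YBL016W) and PRR2 (YDL214C), the agglutinin subunits AGA1 (YNR044W) and AGA2 (YGL032C), and the cell fusion and polarity proteins FUS1 (YCL027W) and FIG1 (YBR040W). They were chosen by gene symbol and role, with earlier results of these data known. Each was read by 1 probe set, so that the group makes up 10 of the 5763 probe sets tested.

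The expression of these genes was measured on Affymetrix yeast arrays in 3 strains at 0, 15, 35 and 55 min after cells growing in rich medium (YPD+CSM, OD600 of 0.4) were moved to minimal medium with no amino acids. The first mutant, eco1-W216G, carries a substitution in Eco1, the acetyltransferase that modifies cohesin. The second mutant, scc2-D730V, carries a substitution in Scc2, which loads cohesin onto chromosomes, and the third strain was wild type at both genes (WT). All 3 strains were W303a, MATa, with the markers ura3-1, leu2,3-112, his3-1, trp1-1, ade2-1 and can1-100 and a deletion of BAR1, which encodes the protease that degrades α-factor. Each mutant was represented by 1 strain, whose mutant allele was linked to a hygromycin marker, so that an effect of the mutation and of that strain cannot be told apart. There were 3 arrays for each strain and time, 36 in all, the labels list no pheromone treatment, and the WT arrays served as the comparison for both mutants.

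The mating genes fall into groups that are switched on in different ways. MFA1, MFA2, STE6, STE2 and AGA2 are a-specific genes, which a cells transcribe at a high basal level and α cells repress. FUS1, FIG1, AGA1 and FUS3 are raised further by pheromone through the transcription factor Ste12. PRR2 encodes a protein kinase that can inhibit pheromone signalling, and it is not one of the a-specific genes.

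Values are log2 of the deposited RMA intensity. A gene was called when limma's test, fitted to all probe sets, gave a p under 0.05 after Benjamini-Hochberg adjustment and the groups stood 1.4-fold or more apart. Fold changes compare samples for the same gene, and the only reading set against other probe sets is that of BAR1, as a rough floor. The deleted BAR1 read 4.44 to 4.89 over the 36 arrays with no transcript to detect, other probe sets can have another floor, and the highest value of any probe set on any array was 15.42. MFA1, MFA2 and STE2 read 13.16 to 14.85, near that upper end, where differences can be compressed. In bulk RNA a smaller share of cells with a transcript and less transcript per cell cannot be told apart.

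The arrays were similar in depth of signal, with medians of 10.95 to 11.14. Over all probe sets the mean correlation of an array with the other arrays of its group ran from 0.966 to 0.992, and the 4 arrays of scc2-D730V replicate 1 had values of 0.966 to 0.969, the lowest of each of their groups. At 0 min ECO1 itself read 5.15 ± 0.10 in eco1-W216G and 8.43 ± 0.37 in WT (SD, n = 3 each), with a log2 ratio of -3.28 (adjusted p = 3.12e-11 from limma). The eco1-W216G reading at 0 min was only 0.42 to 0.63 above BAR1 on the same array, although the label names a substitution. The ratio of -3.28 may thus be a lower bound. At the starved times the ECO1 reading in eco1-W216G was 1.61 to 2.77 above BAR1. SCC2, whose change in scc2-D730V is a substitution, read 11.50 ± 0.28 in that strain and 11.79 ± 0.13 in WT at 0 min (SD, n = 3 each).

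The label MATa was checked against cell type markers. The a-specific members lay far above the BAR1 reading in every array. Of the α-cell markers, the silent cassette gene HMLALPHA1 stayed within -0.10 to 0.62 log2 units of BAR1 on the same array, and the α-factor genes MF(ALPHA)1 and MF(ALPHA)2 lay 0.24 to 2.34 and 1.46 to 3.49 above it. The a-factor receptor gene STE3 lay 1.64 to 3.86 and the α-agglutinin gene SAG1 5.83 to 7.54 above BAR1, although both belong to α cells. Whether these readings are probe background or transcript could not be told from the arrays. The probe set of HMRA1, whose sequence is shared with the a cassette at the mating type locus, lay 5.11 to 6.63 above it, and that of HMRA2 5.72 to 7.21.

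Among the 10 genes PRR2 had the largest difference between eco1-W216G and WT, and it appeared during starvation. At 0 min PRR2 read 7.23, 6.57 and 7.21 in eco1-W216G, 5.85, 6.45 and 6.65 in scc2-D730V, and 7.08, 7.19 and 6.62 in WT. At 15 min PRR2 read 6.71, 7.46 and 7.45 in eco1-W216G, 8.88, 9.42 and 10.05 in scc2-D730V, and 9.99, 9.89 and 10.15 in WT. The eco1-W216G arrays overlapped those of WT at 0 min and lay below all arrays of both other strains at 15 min. At 35 min they read 6.93, 6.97 and 7.55, against 8.10, 8.88 and 8.89 in scc2-D730V and 8.43, 9.25 and 8.82 in WT. At 55 min they read 6.96, 7.20 and 7.36, against 8.07, 8.05 and 8.82 in scc2-D730V and 8.30, 8.71 and 8.34 in WT. All starved arrays of scc2-D730V and WT thus lay above every array of eco1-W216G, whose 4 times overlapped each other.

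At 15 min against 0 min PRR2 differed by 0.21 on the log2 scale in eco1-W216G, with a 95% interval of -0.39 to 0.81 (adjusted p = 0.577 from limma), and did not pass the test. It rose by 3.13 in scc2-D730V (adjusted p = 2.21e-10) and by 3.04, or 8.25-fold, in WT (standard error 0.29, adjusted p = 3.24e-10). Set against WT, PRR2 in eco1-W216G had a log2 ratio of 0.04 at 0 min (adjusted p = 0.943), -2.80 at 15 min (6.97-fold lower, adjusted p = 6.9e-08), -1.69 at 35 min (adjusted p = 4.12e-05) and -1.28 at 55 min (adjusted p = 0.00127), all from limma. The change since 0 min in eco1-W216G minus that in WT was -2.84 at 15 min (adjusted p = 9.91e-06), -1.72 at 35 min (adjusted p = 0.00148) and -1.31 at 55 min (adjusted p = 0.0162). Against scc2-D730V, a comparison that uses no WT array, the log2 ratio of eco1-W216G was -2.24 at 15 min (adjusted p = 3.53e-06). Between 15 and 55 min the difference was -0.04 in eco1-W216G, while PRR2 fell by 1.14 in scc2-D730V and by 1.56 in WT.

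FIG1, for a membrane protein of the mating projection that serves calcium entry and cell fusion, had higher readings at all 4 times in eco1-W216G than in WT. At 0 min FIG1 read 7.53, 7.04 and 7.19 in eco1-W216G, 6.30, 6.04 and 6.37 in scc2-D730V, and 6.70, 6.79 and 6.29 in WT. At 15 min FIG1 read 6.41, 6.02 and 6.05 in eco1-W216G, 5.22, 5.11 and 5.0 in scc2-D730V, and 4.84, 5.04 and 4.82 in WT. All 3 strains read lower at 15 min than at 0 min. At 35 min FIG1 read 6.27, 5.95 and 6.42 in eco1-W216G, 4.94, 5.56 and 5.28 in scc2-D730V, and 5.08, 5.76 and 5.16 in WT. At 55 min FIG1 read 6.45, 6.56 and 6.53 in eco1-W216G, 5.07, 4.93 and 5.35 in scc2-D730V, and 5.04, 5.38 and 4.96 in WT. The 3 arrays of eco1-W216G lay above the 3 of WT at every time.

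The log2 ratio of FIG1 in eco1-W216G to WT was 0.66 at 0 min (adjusted p = 0.00869), 1.26 at 15 min (adjusted p = 5.74e-06), 0.88 at 35 min (adjusted p = 0.000319) and 1.39 at 55 min (2.61-fold, adjusted p = 1.78e-06), all from limma. The WT arrays at 15 min were only 0.01 to 0.18 log2 units above BAR1 on the same array. Those at 35 and 55 min were 0.32 to 1.03 above it, and the starved arrays of scc2-D730V 0.26 to 0.67. If the floor of FIG1 is near that of BAR1, the ratios to WT at the starved times may be lower bounds. The same holds for the falls in scc2-D730V and WT. The call at 0 min was lost when the quantile normalization was repeated (0.33, adjusted p = 0.102), without eco1-W216G replicate 1 (0.52, adjusted p = 0.0804) and without WT replicate 3 (0.51, adjusted p = 0.0893). Those at 15, 35 and 55 min held in all 22 alternatives that tested FIG1, with the highest adjusted p at 0.00929. FIG1 fell at 15 min in all 3 strains, by 1.10 in eco1-W216G, 1.12 in scc2-D730V and 1.69 in WT.

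**Figure D1:**
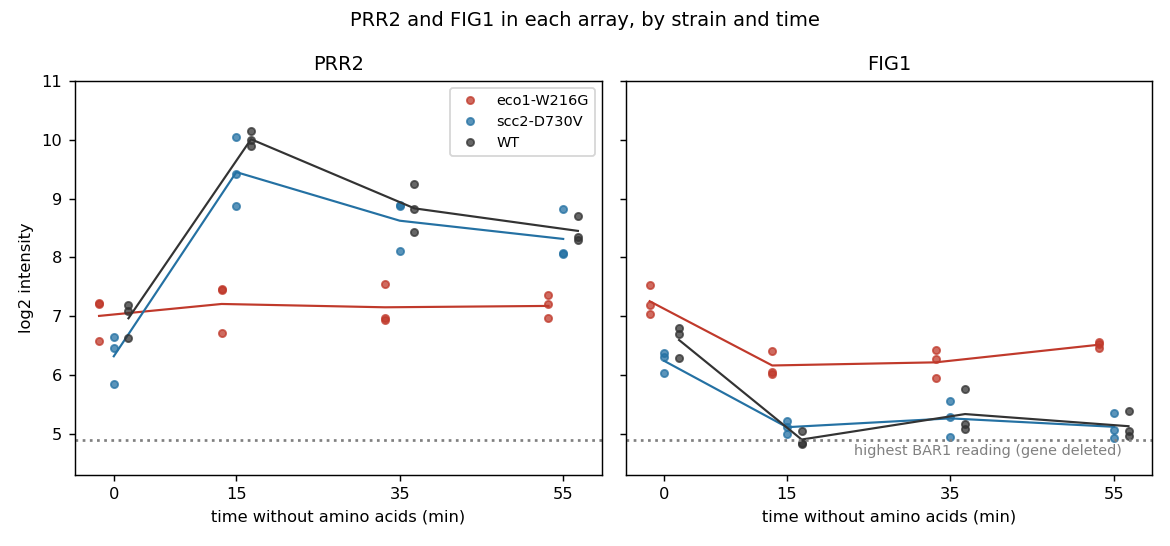
Log2 intensity of PRR2 and FIG1 against time without amino acids (min), with 1 point for each array, lines through the means of 3 arrays, and a dotted line at the highest BAR1 reading of 4.89. PRR2 lies between 8.05 and 10.15 in the starved arrays of scc2-D730V and WT and between 6.71 and 7.55 in those of eco1-W216G, and FIG1 stays highest in eco1-W216G at each time.

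Among all probe sets, 19.2% were called in eco1-W216G against WT at 0 min, 33.7% at 15 min, 37.1% at 35 min and 29.0% at 55 min. Of the 10 mating genes 2, 3, 2 and 2 were called at these times, which is near or below those shares. FIG1 was called higher at all 4 times, FUS3 higher at 15 min, AGA1 lower at 0 min, and PRR2 lower at 15, 35 and 55 min. The median log2 ratio of the 10 genes was -0.12, 0.18, -0.04 and -0.09 at these times, beside -0.08, -0.08, -0.09 and -0.09 over all probe sets.

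The genes for the a-factor and its export and for the receptor were called in neither mutant at any time. STE2 read 13.67 to 14.12 in eco1-W216G, 13.59 to 14.47 in scc2-D730V and 13.49 to 14.27 in WT over all times. Its log2 ratio in eco1-W216G to WT was between -0.13 and 0.11. MFA1 gave ratios of -0.12 to 0.02 and MFA2 of -0.12 to 0.21. STE6, an ABC transporter, had the largest difference of these at 0 min, with 12.46, 12.42 and 12.40 in eco1-W216G against 12.76, 12.90 and 12.83 in WT. The groups did not overlap, but the ratio of -0.40 did not pass the test (adjusted p = 0.156 from limma).

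FUS3, the MAP kinase of the pathway, stood higher in eco1-W216G at 15 min. It read 10.34, 10.19 and 10.38 in eco1-W216G, 10.23, 9.86 and 9.78 in scc2-D730V and 9.57, 9.80 and 9.82 in WT. Every eco1-W216G array was above every WT array, which gave 0.57 as the log2 ratio (standard error 0.17, adjusted p = 0.0095 from limma). At 0 min FUS3 had read 10.77, 11.19 and 10.71 in eco1-W216G against 11.05, 11.30 and 10.81 in WT, with overlapping groups. The fall to 15 min was therefore 0.59 in eco1-W216G against 1.32 in WT, and the difference between these changes was 0.74 (adjusted p = 0.0197).

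The agglutinin genes, whose products hold mating cells together at the cell surface, showed smaller differences that did not all hold. AGA1, the anchoring subunit, read 12.15, 11.64 and 11.84 in eco1-W216G against 13.04, 12.47 and 12.25 in WT at 0 min. The log2 ratio was -0.71 (adjusted p = 0.0417 from limma), but the call was lost without any of the eco1-W216G replicates (-0.85 to -0.59, adjusted p = 0.0539 to 0.135), without WT replicate 1 (-0.48, adjusted p = 0.22) or 2 (-0.77, adjusted p = 0.0781), and without scc2-D730V replicate 2 (-0.71, adjusted p = 0.0505). At 15 min AGA1 read 11.43, 11.80 and 11.34 in eco1-W216G against 10.92, 11.40 and 11.46 in WT, overlapping. Its change to 15 min differed by 0.97 between eco1-W216G and WT (adjusted p = 0.0369).

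AGA2, the adhesive subunit, read 12.88, 12.90 and 12.73 in eco1-W216G against 12.28, 12.31 and 12.14 in WT at 15 min. The arrays did not overlap, and the log2 ratio of 0.59 missed the threshold (adjusted p = 0.0523 from limma). With the replicate number as a block it passed (adjusted p = 0.00812), as did its change since 0 min in eco1-W216G minus that in WT (0.79, adjusted p = 0.014, against 0.076 without the block). With only the arrays of these groups in the fit the same ratio had an adjusted p of 0.00367, and without scc2-D730V replicate 1 or 3 of 0.00256 or 0.0269. FUS1, a membrane protein of the fusion site, had ratios of -0.32, 0.07, -0.09 and -0.39 at 0, 15, 35 and 55 min, none of which was called.

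**Figure D2:**
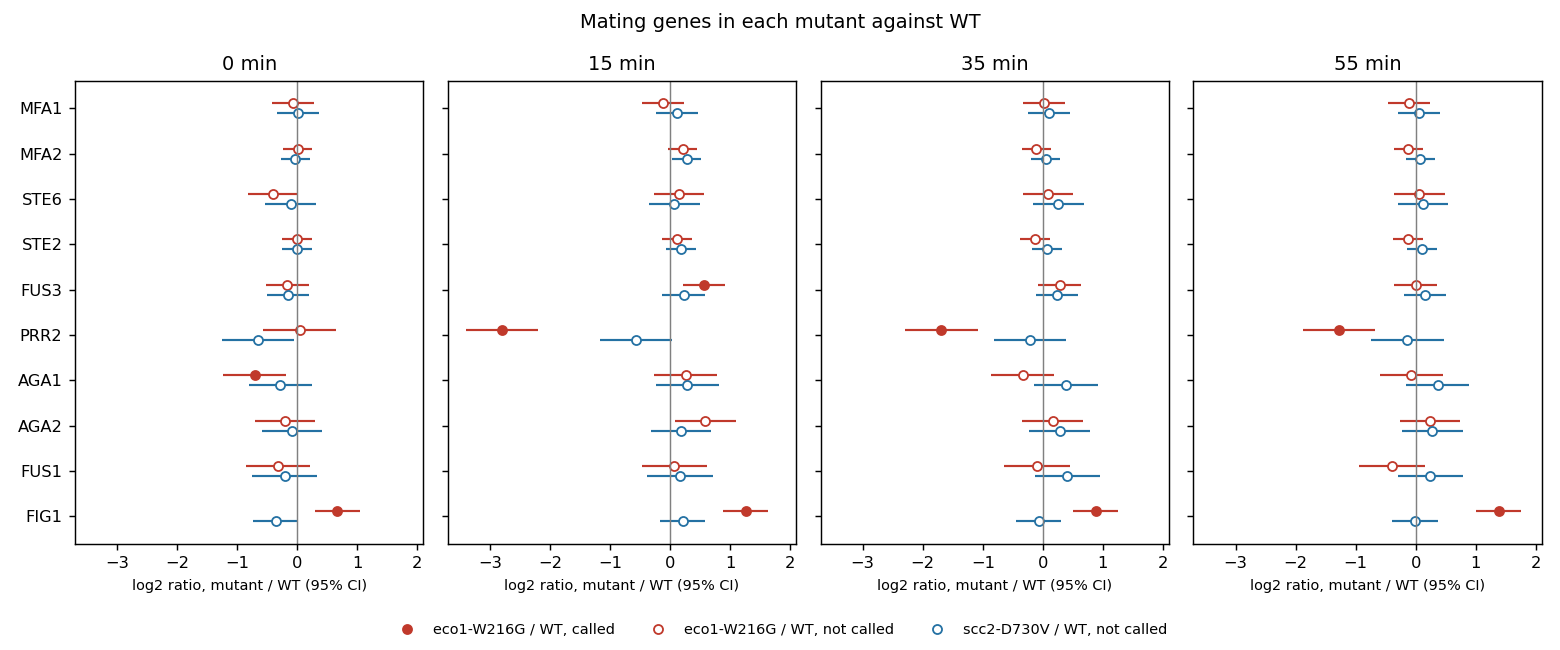
Log2 ratio to WT of each mating gene with its 95% confidence interval, in a panel for each time, with eco1-W216G above scc2-D730V and filled points for called genes. PRR2 at -2.80, -1.69 and -1.28 and FIG1 at 0.66 to 1.39 stand out in eco1-W216G, and no point of scc2-D730V is filled.

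In scc2-D730V none of the 10 genes was called against WT by limma at any time, beside 0.0347% of all probe sets at each time. At an unadjusted p under 0.05 there was 1 gene at 0 min (PRR2), 1 at 15 min (MFA2) and 0 at 35 and at 55 min. PRR2 had log2 ratios of -0.65, -0.56, -0.21 and -0.14 at 0, 15, 35 and 55 min, and at 0 min its 95% interval ran from -1.25 to -0.05. For the 8 genes other than PRR2 and FIG1, the 95% intervals at the 4 times lay within -0.81 to 0.95, so that changes of that size could have gone uncalled. The WT arrays are shared with the comparison of eco1-W216G, so the comparisons are not independent.

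Replicate 1 of scc2-D730V stood apart in several mating genes at 35 min. FUS1 read 12.61 in replicate 1 and 11.61 and 11.32 in the others, AGA1 13.44 against 12.58 and 12.23, and AGA2 13.84 against 13.11 and 12.70. The median log2 ratio of the 10 genes to WT was -0.13, 0.19, 0.17 and 0.12 at 0, 15, 35 and 55 min with all arrays, and -0.23, 0.03, -0.00 and 0.01 without that replicate, and no gene was called at any time in either case.

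The course after the move to medium without amino acids was followed within each strain. In it the loss of amino acids, the change from rich to minimal medium and the elapsed time cannot be told apart. In eco1-W216G 3 of the 10 genes were called at 15 min against 0 min, MFA1 (-0.67), FUS3 (-0.59) and FIG1 (-1.10), all lower, beside 41.2% of all probe sets. The median change of the 10 genes was -0.34, beside -0.03 over all probe sets. AGA2 read 12.88, 12.90 and 12.73 at 15 min against 12.87, 12.84 and 12.78 at 0 min, groups that overlap. At 35 min FUS1 was higher and FIG1 lower (40.6% of all probe sets), and at 55 min AGA2 and FUS1 were higher and FIG1 lower (40.3%). FUS1 read 11.28, 11.33 and 11.37 at 55 min against 10.28, 10.41 and 10.54 at 0 min, a rise of 0.92 (adjusted p = 0.00539 from limma). From 15 to 55 min MFA1 rose by 0.76 and AGA1 by 0.94, as 2 of 10 genes beside 2.38% of all probe sets, and the count lay between 0 and 5 under leave-one-out. Both were lost without any 1 of the eco1-W216G replicates (MFA1 at 0.67 to 0.83, AGA1 at 0.89 to 0.96), and AGA1 also without WT replicate 2 or 3 or scc2-D730V replicate 2, which left its value as it was.

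In scc2-D730V 6 of the 10 genes were called at 15 min against 0 min, PRR2 higher and MFA1, STE6, FUS3, AGA1 and FIG1 lower (62.2% of all probe sets). At 35 min PRR2 and FUS1 were higher and FUS3 and FIG1 lower (61.4%), and at 55 min PRR2, AGA1, AGA2 and FUS1 were higher and FIG1 lower (59.3%). From 15 to 55 min 8 genes rose and PRR2 fell, as a count of 9 of 10 beside 25.6% of all probe sets. With only the arrays of these times in the fit, that count was 2. The change since 0 min in scc2-D730V minus that in WT was called by limma for 0 of the 10 genes and for 0.00% of all probe sets at each time, and at an unadjusted p under 0.05 for FIG1 alone, at 15 min.

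In WT most of the mating genes fell and then rose again. At 15 min against 0 min, 8 of the 10 genes were called, 7 lower and only PRR2 higher, beside 64.0% of all probe sets. The median change of the 10 genes was -0.70, beside 0.02 over all probe sets. AGA1 read 10.92, 11.40 and 11.46 at 15 min against 13.04, 12.47 and 12.25 at 0 min in WT, and fell by 1.33 (adjusted p = 4.03e-05 from limma). STE6 fell by 1.02, AGA2 by 0.78, MFA1 by 0.62 and MFA2 by 0.52, while STE2 and FUS1 were not called.

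At 55 min MFA1, MFA2, STE6, STE2, AGA1 and AGA2 stood at -0.24 to 0.22 relative to 0 min in WT, with none called. Called in WT at 35 min were 4 of the 10 genes (64.0% of all probe sets), namely PRR2 and FUS1 higher and FUS3 and FIG1 lower, and at 55 min the same 4 genes in the same directions (62.2%). Between 15 and 55 min 8 of the 10 genes rose in WT and 1, PRR2, fell, beside 28.7% of all probe sets. FUS1 read 11.66, 11.56 and 11.95 at 55 min against 10.50, 10.70 and 10.53 at 15 min in WT, and its rise was 1.14 (adjusted p = 0.00133 from limma). AGA1 rose by 1.28, AGA2 by 0.98, FUS3 by 0.80, STE6 by 0.78, MFA1 by 0.74, MFA2 by 0.71 and STE2 by 0.57 over the same interval. FUS1 was the member that ended furthest above its level in rich medium apart from PRR2, with 0.99 in WT (adjusted p = 0.00151).

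Some of these calls were lost when 1 replicate was left out, which also leaves fewer arrays in the fit. Without eco1-W216G replicate 2 the fall at 15 min in that strain was 0.38 for FUS3 (adjusted p = 0.162 from limma) and 0.49 for MFA1 (adjusted p = 0.0856), and the rise of FUS1 at 35 min was 0.72 (adjusted p = 0.103). Without eco1-W216G replicate 1 the fall of FIG1 at 55 min was 0.57 (adjusted p = 0.051). The rise of AGA2 at 55 min in eco1-W216G was lost without any 1 of its replicates (0.56 to 0.70, adjusted p = 0.0838 to 0.188).

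In scc2-D730V some calls of AGA1, AGA2, FUS3 and MFA1 against 0 min were lost in this way. AGA1 at 15 min was lost without replicate 3 (-0.53, adjusted p = 0.113 from limma), and at 55 min without replicate 1 (0.46, adjusted p = 0.115) or 2 (0.58, adjusted p = 0.127). AGA2 at 55 min was lost in 7 of the 9 fits that left out 1 replicate, with 0.47 to 0.69. FUS3 at 35 min was lost without replicate 2 (-0.43, adjusted p = 0.0924) or 3 (-0.32, adjusted p = 0.176), and MFA1 at 15 min came to -0.46, under the 1.4-fold limit, without replicate 2. From 15 to 55 min MFA2, STE2 and STE6 were lost without replicate 3, at 0.47, 0.41 and 0.68.

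In WT the fall of AGA2 at 15 min was lost without replicate 1 (-0.65, adjusted p = 0.0714) or 2 (-0.72, adjusted p = 0.0501), and that of MFA2 came to 0.40, under the 1.4-fold limit, without replicate 1. The fall of FUS3 at 55 min in WT was 0.29 without replicate 2 (adjusted p = 0.234), and the rise of FUS1 at 35 min was lost without replicate 2 (0.70, adjusted p = 0.0788) or 3 (0.64, adjusted p = 0.107). Between 15 and 55 min in WT, FUS3 (0.57, adjusted p = 0.0649) and STE6 (0.69, adjusted p = 0.0848) were lost without replicate 1.

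The difference between the strains in these courses was tested as the change in eco1-W216G minus that in WT. At 15 min it was called for FUS3 (0.74), AGA1 (0.97) and PRR2 (-2.84), 3 of 10 genes beside 34.2% of all probe sets. At 35 min PRR2 alone was called (39.5% of all probe sets), and at 55 min PRR2 and FIG1 (31.3%). FIG1 had fallen by 0.74 in eco1-W216G and by 1.46 in WT at 55 min, a difference of 0.72 (adjusted p = 0.0331). For the change from 15 to 55 min PRR2 alone passed, at 1.52 (adjusted p = 0.042, beside 2.65% of all probe sets). The other 9 genes had differences of -0.57 to 0.13, none of them called. Of these called differences only those of PRR2 at 15 and 35 min held when any 1 replicate was left out. The others were lost in at least 3 such fits each, with FUS3 at 0.61 to 0.94, AGA1 at 0.58 to 1.24, FIG1 at 0.59 to 0.89, PRR2 at 55 min at -1.54 to -1.09 and PRR2 between 15 and 55 min at 1.38 to 1.71.

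**Figure D3:**
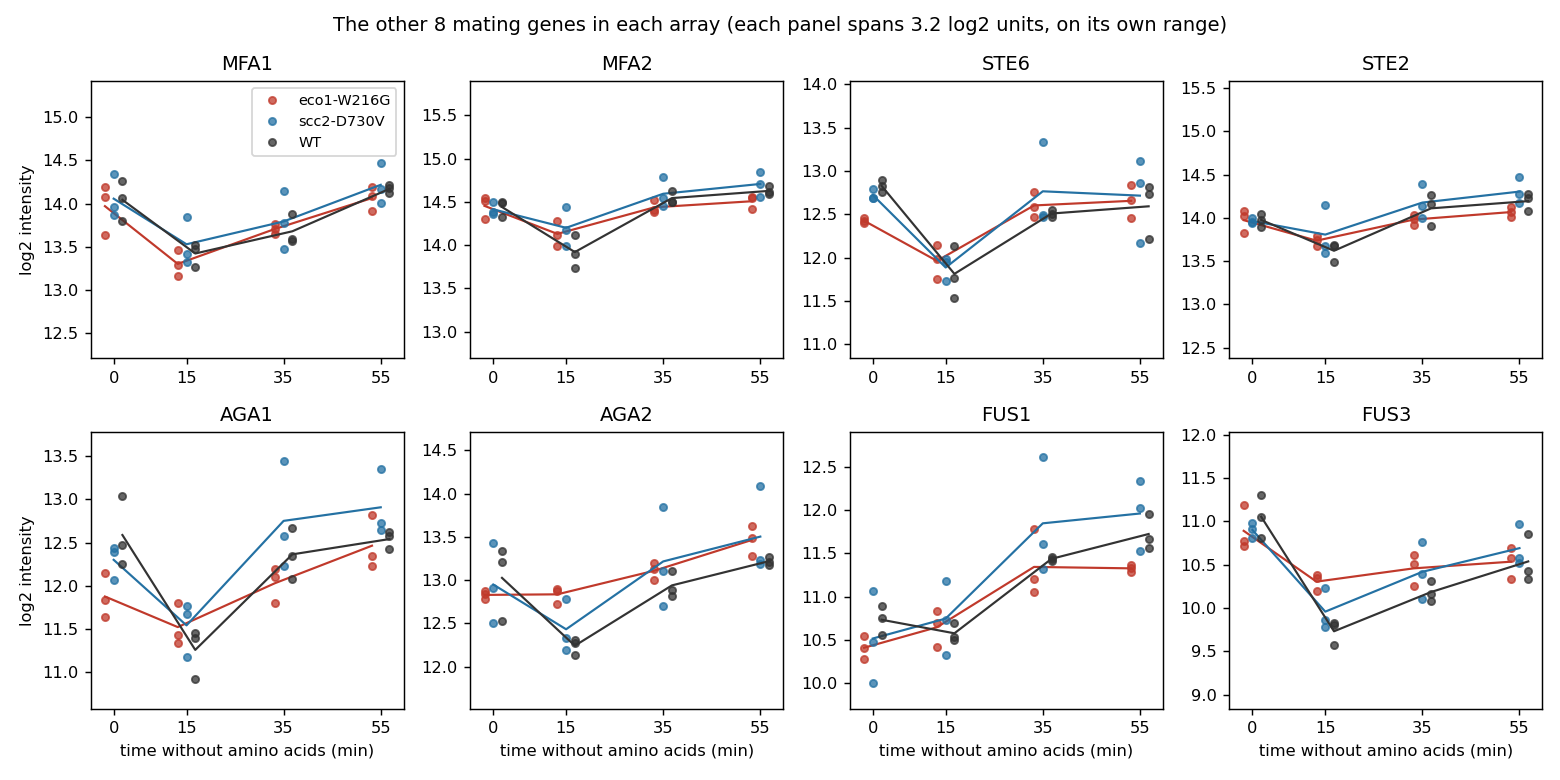
Log2 intensity of the other 8 mating genes against time without amino acids (min), with 1 point for each array and lines through the means of 3 arrays. AGA1, AGA2, STE6 and FUS3 dip at 15 min in WT and are higher again at 55 min, and at 15 min the FUS3 and AGA2 points of eco1-W216G lie above all those of WT.

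**Figure D4:**
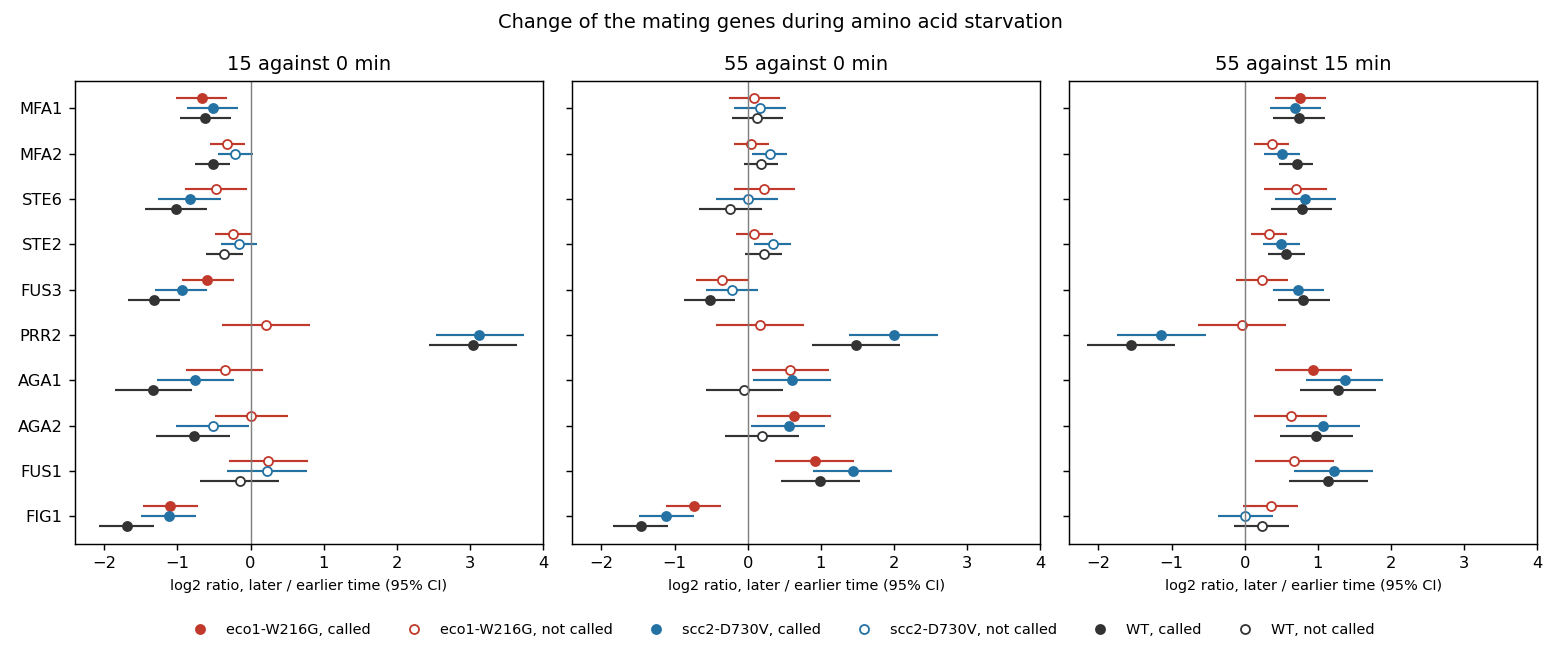
Log2 ratio of the later to the earlier time for each mating gene with its 95% confidence interval, with eco1-W216G above scc2-D730V and WT within each gene and filled points for called genes. At 15 against 0 min PRR2 stands at 0.21 in eco1-W216G, 3.13 in scc2-D730V and 3.04 in WT.

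The rest of the pathway was read from a list of 56 further genes, chosen by role with earlier results of these data known. In eco1-W216G against WT the genes called higher numbered 4, 9, 8 and 5 at 0, 15, 35 and 55 min and those called lower 11, 12, 11 and 11, with medians of -0.18, -0.10, -0.11 and -0.21. Over all probe sets 19.2%, 33.7%, 37.1% and 29.0% were called in these comparisons. These shares count both directions, and the list lay near them at 15, 35 and 55 min. By direction the list departed from all probe sets at 0 and 55 min. At 0 min its 4 higher and 11 lower calls stood beside 661 higher and 446 lower over all probe sets. At 55 min its 5 higher and 11 lower calls stood beside 843 and 829. Whether the list differs from all probe sets in direction was not tested. In scc2-D730V none was called by limma at any time. At 15 against 0 min, 8 of the 56 rose and 11 fell in eco1-W216G, and 15 rose and 18 fell in WT, beside 41.2% of all probe sets called in eco1-W216G and 64.0% in WT. By role, the counts higher and lower in eco1-W216G against WT were small at each of 0, 15, 35 and 55 min. Of 7 genes for a-factor processing none was higher and 1, 2, 3 and 2 were lower. Of 7 genes for the G protein and its regulators 1, 0, 0 and 0 were higher and 3, 2, 3 and 4 lower. Lower genes outnumbered higher ones at each time in these roles. Over all probe sets 661, 925, 986 and 843 were higher and 446, 1017, 1151 and 829 lower at these times. There too lower calls outnumbered higher ones at 15 and 35 min. Of 11 genes of the kinase cascade 0, 2, 1 and 0 were higher and 1 was lower at each time. Of 6 transcription genes none was higher and 2, 1, 0 and 0 were lower. Of 7 arrest and polarity genes 0, 3, 3 and 2 were higher and 1, 0, 0 and 0 lower. These 7 had no lower call during starvation, but so small a set cannot be set apart from all probe sets. Of 8 genes of fusion and karyogamy 0, 1, 2 and 1 were higher and 2, 3, 1 and 2 lower, and of 10 other pheromone-induced genes 3, 3, 2 and 2 were higher and 1, 3, 3 and 2 lower.

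At 0 min AFR1, which dampens receptor signalling and helps to shape the mating projection, read 10.67 ± 0.09 in eco1-W216G and 9.0 ± 0.17 in WT (SD, n = 3 each), a log2 ratio of 1.66 (adjusted p = 1.16e-08 from limma). At 15 min it was lower, with 11.27 ± 0.17 in eco1-W216G and 12.03 ± 0.14 in WT and a ratio of -0.75 (adjusted p = 0.000633). STE4, the β subunit of the G protein, was lower at 0 min (-0.71, adjusted p = 6.83e-05), and ASG7, an a-specific gene whose product restrains Ste4 signalling, was lower at 35 min (-0.96, adjusted p = 0.0001).

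At 0 min PRM5, a membrane protein gene raised by pheromone and by cell wall stress, read 12.82 ± 0.16 in eco1-W216G and 10.38 ± 0.73 in WT (SD, n = 3 each). Its log2 ratio was 2.44 at 0 min and 0.07 at 55 min, when its means were 13.47 in eco1-W216G and 13.40 in WT. SCW10 encodes a glucanase-like protein of the cell wall with a part in mating, and its 15 min readings averaged 13.68 ± 0.16 in eco1-W216G and 11.50 ± 0.09 in WT (SD, n = 3 each), a log2 ratio of 2.17 (adjusted p = 5.66e-09 from limma). Its fall since 0 min was 0.61 in eco1-W216G and 2.48 in WT. PRM3, of nuclear membrane fusion, was 1.49 higher in eco1-W216G at 55 min, and the kinesin gene KAR3 1.14 higher at 35 min. The time first given for each of these genes of the wider list was picked as that of its smallest adjusted p.

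GIC2, an effector of Cdc42, was 1.03 higher in eco1-W216G at 15 min, and PEA2, a polarisome subunit, 0.79 higher at 35 min. FUS2, of cell fusion, had a log2 ratio of -1.02 at 15 min, KAR5, of nuclear fusion, -0.75 at 55 min, and RAM2, a subunit of the farnesyltransferase that modifies a-factor, -0.83 at 35 min. BAR1 had ratios of -0.22 to -0.14, none of which was called.

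**Figure D5:**
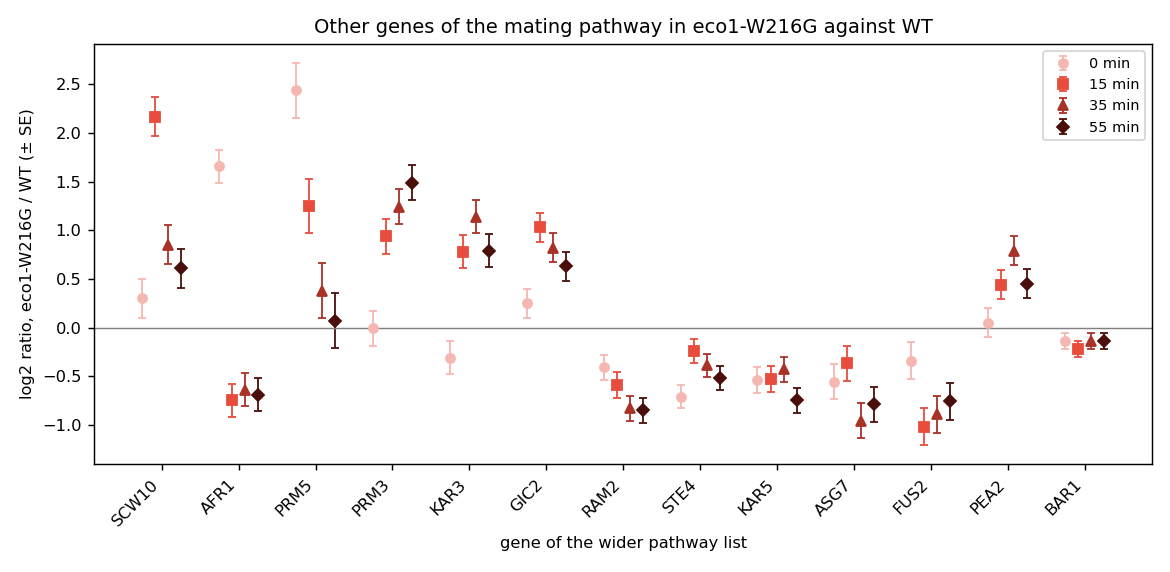
Log2 ratio of eco1-W216G to WT with its standard error for 12 further genes of the pathway and the deleted BAR1, at 0, 15, 35 and 55 min. PRM5 and AFR1 are highest at 0 min (2.44 and 1.66), SCW10 at 15 min (2.17), and BAR1 stays near 0.

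The transcription factor gene STE12 and the arrest gene FAR1 lie outside the rule for named genes and were added after their values were seen. At 0 min STE12 had a log2 ratio of -0.68 (adjusted p = 0.0295 from limma) in eco1-W216G to WT and FAR1 of -0.93 (adjusted p = 0.0168). At 15 min FAR1 was higher, with 0.70 (adjusted p = 0.0471), and STE12 had a ratio of 0.55 that did not pass (adjusted p = 0.0585). The fall at 15 min since 0 min was 0.74 in eco1-W216G and 1.97 in WT for STE12, and 0.71 in eco1-W216G and 2.34 in WT for FAR1.

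Some cell type markers moved with the strain. Of the 4 α-cell markers 2 were called higher in eco1-W216G than in WT at 0 min, STE3 by 1.5 (adjusted p = 0.00336 from limma) and MF(ALPHA)1 by 0.90 (adjusted p = 0.00314), 2 at 15 min (MF(ALPHA)1 and SAG1), 0 at 35 min and 1 at 55 min (MF(ALPHA)1). Over all probe sets 19.2%, 33.7%, 37.1% and 29.0% were called at these times. Their summed linear intensity, in which SAG1 had the largest share, was 3439 to 4100 in eco1-W216G, 1905 to 2607 in scc2-D730V and 2397 to 2928 in WT at 0 min. At 15 min it was 3459 to 3918 in eco1-W216G, 1767 to 3020 in scc2-D730V and 1937 to 2745 in WT. At these times eco1-W216G lay above both other strains. At 35 min it was 2686 to 3685 in eco1-W216G, 2584 to 4478 in scc2-D730V and 3033 to 3484 in WT. At 55 min it was 3942 to 5265 in eco1-W216G, 3406 to 4892 in scc2-D730V and 2949 to 4742 in WT. The strains overlapped at 35 and 55 min. The α cassette gene HMLALPHA1 stayed within 0.62 of the BAR1 reading in all 3 strains. Of 7 a-cell markers none was called higher in eco1-W216G than in WT at any time. Called lower were 2, 0, 1 and 1 at 0, 15, 35 and 55 min. Of the 7 haploid-specific genes 0, 2, 1 and 1 were called higher in eco1-W216G at 0, 15, 35 and 55 min. Their lower calls numbered 4, 1, 2 and 2. Of all 5763 probe sets 661, 925, 986 and 843 were higher and 446, 1017, 1151 and 829 lower. The a-cell and haploid-specific sets repeat genes of the 10 and of the wider list, so they are not separate from those counts. Whether sets this small differ from all probe sets was not tested. The part of these markers in the values of FIG1, PRR2 and the other mating genes was not tested.

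Over the 12 group means Pearson's r between pairs of the a-specific genes and AGA1 ran from 0.72 (AGA2 and MFA1) to 0.98 (MFA2 and STE2). PRR2 ran opposite to FIG1 (r = -0.86) and FUS3 (r = -0.82). These correlations describe 12 means that share arrays and a common time course. The search covered 3252 genes outside the 10 genes and the wider list, whose group means spanned at least 1 log2 unit. Among them, those most like PRR2 were SOL1 and MRX10 (r = 0.981 each) and AZF1 (0.974). Those most like FIG1 were RRT5 (0.984), HUG1 (0.970) and SUR2 (0.964), and those most like FUS3 were URK1 (0.987), IKI1 and ALA1 (0.981 each). For STE2 and MFA2 the same 3 genes came first, ARG81, GCN2 and GLT1, with r of 0.939 to 0.969. These names depend on the measure. For FIG1 and FUS3, 0 of the 3 genes were also among the first 3 by Spearman's rho. For PRR2, SOL1 had the highest possible rho of 1.0 and was tied with those listed first, while MRX10 (0.923) and AZF1 (0.972) lay lower. Over the 36 single arrays 1 of 3 each (SOL1, RRT5 and URK1) was among the first 3.

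The genes beside PRR2 and FIG1 on their chromosomes, looked up in assembly R64 after the values were seen, did not share their pattern throughout. RRI1, next but one to PRR2, had a log2 ratio of -1.18 in eco1-W216G to WT at 15 min (adjusted p = 0.000232 from limma), and it rose by 2.29 in WT at that time. The immediate neighbours NOP6 and GDH2 had eco1-W216G to WT ratios of 2.16 (adjusted p = 2.25e-06) and 0.22 (adjusted p = 0.149) at 15 min. Their changes in WT to 15 min were -3.93 (adjusted p = 1.91e-12) and 1.02 (adjusted p = 1.35e-08), so that GDH2 rose there as PRR2 did. SHR3, next but one on the other side, had a ratio of 0.25 (adjusted p = 0.265) and a change of -0.57 in WT. At 0 min GDH2 had a ratio of 0.65 (adjusted p = 0.000177) and NOP6 of -0.27 (adjusted p = 0.541). Next to FIG1, ATP3 was called higher at 0 min, as FIG1 was, with 0.53 (adjusted p = 0.00404), and had a ratio of 0.11 at 15 min that was not called. FAT1, on the other side, had ratios of 0.17 and -0.05 at 0 and 15 min, neither of them called. Next but one to FIG1, CHS2 and CST26 had ratios of 0.36 and -0.18 at 0 min and -0.11 and 0.09 at 15 min, none called. In WT at 15 min CST26 changed by -0.77 (adjusted p = 1.69e-05 from limma), and CHS2, ATP3 and FAT1 by 0.1, 0.19 and 0.09.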

How the data were processed

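RNA of 36 samples was hybridised to 1-colour Affymetrix arrays. The authors deposited RMA values, which is background-corrected, quantile-normalized and summarised intensity for each probe set, on a linear scale. The RMA version was not given in the sources used here. Log2 was taken of the deposited intensity, 51 control probe sets were left out of 5814, and 5763 were fitted with limma 3.58.1 in R 4.3.3, with a mean for each of the 12 groups of strain and time (24 residual degrees of freedom). Moderated tests were adjusted by Benjamini-Hochberg over all probe sets of a contrast. The number of arrays limits the precision, and p-values measure the spread between 3 cultures of 1 strain each. Per the study's text each strain had 3 independent cultures, sampled over time, so the times of a strain are not independent. The labels do not tie a replicate number to a culture. Genes were named from the platform annotation (5498 probe sets with 1 symbol), and locus tags came from RefSeq assembly R64. The members and lists were chosen with earlier results of these data known. Named from the wider list were up to 12 genes with the smallest adjusted p in eco1-W216G against WT at any time, at most 3 a role, and BAR1. Each of these genes but BAR1 was first given at its time of smallest adjusted p. The fit was tested on simulated data with independent noise for each array. Those data lack the correlation between same-numbered arrays, so they do not test the p-values under it. Alternatives changed the arrays fitted, the normalization, filters, variance model, replicate block and thresholds, and left out each replicate. The comparison of the mutants with each other and the change from 15 to 55 min were added after seeing the data. A promoter motif search was not run here.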

Additional observations from a re-analysis of the deposited data

Results flagged for a closer look

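The change since 0 min differed between eco1-W216G and WT for 3, 1 and 2 of the 10 genes at 15, 35 and 55 min, by limma's test of the difference itself, beside 34.2%, 39.5% and 31.3% of all probe sets. For PRR2 the difference was -2.84 at 15 min (adjusted p = 9.91e-06), -1.72 at 35 min (adjusted p = 0.00148) and -1.31 at 55 min (adjusted p = 0.0162). Leaving out 1 replicate gave -3.18 to -2.48 at 15 min and -1.99 to -1.5 at 35 min, with no call lost. At 55 min the call was lost without eco1-W216G replicate 1 (-1.09, adjusted p = 0.09) or 3 (-1.30, adjusted p = 0.0535), and without WT replicate 2 (-1.29, adjusted p = 0.0523) or 3 (-1.20, adjusted p = 0.0741). For the change of PRR2 from 15 to 55 min the difference was 1.52 (adjusted p = 0.042). It was lost without any 1 of the eco1-W216G and WT replicates (1.38 to 1.71, adjusted p = 0.0717 to 0.248) and without scc2-D730V replicate 2 (adjusted p = 0.0572).

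For FUS3 the difference in the change to 15 min was 0.74 (adjusted p = 0.0197 from limma). It was lost without eco1-W216G replicate 1 (0.66, adjusted p = 0.0852) or 3 (0.61, adjusted p = 0.14), and without WT replicate 1 (0.66, adjusted p = 0.0703) or 2 (0.65, adjusted p = 0.0835). For AGA1 the difference was 0.97 (adjusted p = 0.0369), and it was lost without eco1-W216G replicate 2 (0.72, adjusted p = 0.172) or 3 (1.04, adjusted p = 0.0788) and without WT replicate 1 (0.58, adjusted p = 0.275) or 2 (1.10, adjusted p = 0.0553). For FIG1 the difference in the change to 55 min was 0.72 (adjusted p = 0.0331), and it was lost without eco1-W216G replicate 2 (0.59, adjusted p = 0.124) or 3 (0.69, adjusted p = 0.116) and without WT replicate 1 (0.62, adjusted p = 0.118). The WT level of FIG1 at 55 min was near the BAR1 reading, so its fall in WT may be a lower bound.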

How the results depend on the processing

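Over the log2 ratios of the 10 genes in all contrasts and alternatives, 6473 values kept their sign and their side of the threshold, 68 passed the threshold newly and 141 no longer passed it. Another 156, not called under either setting, changed sign, and 0 called values did. The number of all probe sets called moved with the setting too. In the main fit of eco1-W216G against WT 661 were higher and 446 lower at 0 min, and 843 and 829 at 55 min. With an adjusted p under 0.001 these were 365, 93, 421 and 298. Leaving out dim probe sets, those with a mean log2 under 9.92, removed FIG1 and PRR2 by construction. Of the 4322 left, 511, 644, 680 and 551 were called higher in eco1-W216G against WT at 0, 15, 35 and 55 min. Those called lower numbered 241, 665, 836 and 639. The called members then numbered 1, 1, 0 and 0 of 8 for eco1-W216G against WT at 0, 15, 35 and 55 min, 2 and 2 in WT at 35 and 55 min against 0 min, 1 in eco1-W216G at 35 min, 2 and 3 in scc2-D730V at 35 and 55 min, and 0 and 0 for the difference in changes between eco1-W216G and WT at 35 and 55 min. With an adjusted p under 0.001 the counts were 0 and 1 for eco1-W216G against WT at 0 and 55 min, 2 in WT at 55 min against 0 min and 5 against 15 min, 1, 1 and 0 in eco1-W216G at 15, 35 and 55 min and 0 at 55 against 15 min, 3 in scc2-D730V at 55 min and 2 at 55 against 15 min, and 1, 0 and 0 for the difference in changes at 15, 35 and 55 min.

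For eco1-W216G against WT at 0 min the count was 1 with only the arrays compared, after repeated quantile normalization, with arrays centred on their medians, and with p-values adjusted over the 8 mutant contrasts. In eco1-W216G at 55 against 15 min it was 5 with only those arrays, 1 with centred arrays and 5 with array weights. In scc2-D730V it was 3 with centred arrays at 55 min, and 2 with only those arrays at 55 against 15 min. For the difference in changes it was 5 at 15 min and 2 at 35 min, each with only those arrays and with array weights.

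The deviations of same-numbered arrays correlated above 0.1 in 21 of 24 mutant and WT pairs (r of -0.143 to 0.84) and in 25 of 36 pairs of times (-0.286 to 0.649). For eco1-W216G and WT all pairs were above it at 0, 15 and 55 min, and 1 of 3 was at 35 min. As this did not hold for every pair and the labels tie no number to a culture, the numbers were not treated as pairs. The replicate block removed no call. It added AGA2 for eco1-W216G against WT at 15 min (adjusted p = 0.00812) and for the difference in changes at 15 min (adjusted p = 0.014), AGA1 in eco1-W216G at 55 min (adjusted p = 0.0377), AGA2 in scc2-D730V at 15 min (adjusted p = 0.0116), PRR2 for eco1-W216G against scc2-D730V at 0 min (adjusted p = 0.0387), and STE6 and AGA2 in eco1-W216G at 55 against 15 min (adjusted p = 0.0362 and 0.0401). With the replicate block the count in eco1-W216G at 55 against 15 min was 4. With a random replicate block it was 5, and 5 for the difference in changes at 15 min.

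Leaving out 1 replicate gave 0 to 2 called members for eco1-W216G against WT at 0 min and 3 to 4 at 15 min, with 2 each time at 35 and 55 min, and 0 for scc2-D730V against WT. It gave 6 to 8, 3 to 4 and 3 to 4 in WT at 15, 35 and 55 min, 1 to 3, 1 to 2 and 1 to 4 in eco1-W216G, and 5 to 6, 3 to 4 and 3 to 5 in scc2-D730V. At 55 against 15 min it gave 0 to 5 in eco1-W216G, 6 to 9 in scc2-D730V and 7 to 9 in WT. For the difference in changes between eco1-W216G and WT it gave 1 to 4, 1 and 0 to 2 at 15, 35 and 55 min. Over all probe sets, leaving out 1 replicate gave 470 to 720 higher and 219 to 524 lower in eco1-W216G against WT at 0 min. At 15 min it gave 804 to 964 higher and 766 to 1069 lower. At 35 min these were 879 to 1020 and 924 to 1222, and at 55 min 677 to 902 and 597 to 903. For the other comparisons the counts over all probe sets in such fits are not given here. With 3 arrays a group, and FIG1 in WT close to the reading of a deleted gene, small changes could not be measured.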
